A study of Mus musculus with 4 samples.

Results

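Fibroblast nuclei of 2 mouse heart libraries were compared: Rbm20_homo, from animals with a homozygous Rbm20 mutation, and Rbm20_homo_corrected, from animals with that mutation and a gene editing correction (the corrected library). A nucleus was taken as a fibroblast nucleus by its own UMI counts (a UMI, or unique molecular identifier, stands for 1 captured RNA molecule). It had at least 300 genes, at most 5% mitochondrial UMIs, under 2.5% of UMIs from Ttn, Ryr2, Myh6 and Rbm20, and at least 4 UMIs over Pdgfra, Dcn, Col1a2, Col3a1, Gsn and Abca8a. It also had at most 3 UMIs over Flt1, Ptprb and Cyyr1 and at most 2 over Ptprc, Mrc1 and F13a1. The rule selected 3797 of 11512 nuclei in Rbm20_homo and 4314 of 14957 in the corrected library, so 8111 of 26469 nuclei in these libraries and of 45483 in the series. Those 16 genes chose the nuclei, so their levels are given as a description and support nothing.

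All animals were C57BL/6 mice aged 6 months, and each library came from the total cardiac nuclei of 3 pooled hearts. The other libraries were wild type (WT) and a heterozygous Rbm20 mutation (Rbm20_het), from which the same rule selected 2292 and 2907 nuclei. They are given beside the compared pair as levels. The labels name neither the allele nor the agent, dose or time of the correction, and CD45+ immune cells also appear in their protocol text. Because each genotype had a single library, there is no replicate error, genotypes could not be tested against each other, and what follows compares 2 libraries. Within the corrected library, an effect of the repaired allele and an effect of the treatment cannot be told apart.

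Cardiac fibroblasts lie between the muscle fibres and make and turn over the collagen-rich matrix of the heart. After injury or strain they can become activated: they divide, secrete matricellular proteins (matrix proteins that signal to cells rather than bear load) and lay down fibrillar collagen. RBM20 is a splicing factor of heart muscle cells, where it controls titin and calcium-handling transcripts, and mutations in it cause dilated cardiomyopathy.

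The selected nuclei carried fibroblast markers beyond those of the rule. The summed level of 16 fibroblast markers outside the rule was 10508 CPM in Rbm20_homo and 12128 CPM in the corrected library (CPM, counts per 1000000 after summing the nuclei of a library and leaving mitochondrial UMIs out). In endothelial nuclei of the same libraries, picked by Flt1, Ptprb and Cyyr1 and limited to under 4 UMIs of the fibroblast rule genes, the same sum was 1504 and 1765 CPM. At the edge of the rule, 168 Rbm20_homo nuclei had exactly 4 UMIs of the 6 fibroblast genes and 244 had 3, with 235 and 371 in the corrected library. Lama2, a laminin chain that did not enter the rule, was at 1789 CPM just inside and 1355 CPM just outside in Rbm20_homo, and at 2329 and 2287 CPM in the corrected library. Bicc1, another marker outside the rule, was at 674.5 and 516 CPM in Rbm20_homo and 772.6 and 614.6 CPM in the corrected library. Gpc6 was lower just inside in Rbm20_homo, at 3062 against 3221 CPM, and higher in the corrected library, at 4515 against 4031 CPM. Nuclei just outside the rule thus also held these markers.

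Fibroblast nuclei held 12757278 non-mitochondrial UMIs in Rbm20_homo and 11380951 in the corrected library, with medians of 2900 and 2373 UMIs per nucleus. WT and Rbm20_het held 6420717 and 9019021, with medians of 2529 and 2757. Of the cell barcodes, 223 occurred in more than 1 library, and 7 marked fibroblast nuclei in both compared libraries. RNA of heart muscle cells was present in the selected nuclei of both: the summed level of 21 cardiomyocyte markers outside the rule was 3291 and 3466 CPM, with none at 0. For 19 of those markers outside the rule, the level in fibroblast nuclei ran from 8.09% to 62.6% of that in cardiomyocyte nuclei for Rbm20_homo (median 22.9%) and from 5.74% to 63.0% for the corrected library (median 18.0%). Nppa, the atrial natriuretic peptide of stressed heart muscle, shows how far this reaches. In fibroblast nuclei Nppa measured 4.98, 17.4, 542 and 23.5 CPM (order WT, Rbm20_het, Rbm20_homo, corrected), while cardiomyocyte nuclei held 867 CPM in Rbm20_homo and 41.0 in the corrected library. A UMI of Nppa was found in 66.0% of the Rbm20_homo fibroblast nuclei. Genes were left out of the named genes if, in the library where fibroblast nuclei held more, that level was under 0.2 of the level in cardiomyocyte, endothelial or immune nuclei. The filter does not look at the lower library, where Blnk, Adra1a, Arntl and Npas2, among others, were under 0.2 of another class of nuclei.

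Of the other cell types, pericyte and smooth muscle markers summed to 1800.1 CPM in Rbm20_homo and 2488 in the corrected library over 16 genes, and endothelial markers outside the rule to 617 and 834 CPM over 13. Macrophage markers outside the rule summed to 315 and 342 CPM over 13 genes, with none at 0. Lymphocyte markers summed to 14.1 and 38.3 CPM over 14 genes, of which 1 was at 0 in each, Schwann cell markers to 1036 and 1028 CPM over 10, mesothelial markers to 139.7 and 80.6 CPM over 11, and adipocyte markers to 39.4 and 39.5 CPM over 11, of which 6 and 3 were at 0. The Schwann list summed to 142 and 224 CPM in endothelial and 31.9 and 43.1 CPM in cardiomyocyte nuclei of Rbm20_homo and corrected. The pericyte and smooth muscle list summed to 8212 and 11203 CPM in cardiomyocyte nuclei. The sum of a marker list thus does not measure RNA of that cell type alone. The part of RNA from other cell types in the differences below was not tested, except where the level of a gene in other nuclei is given.

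Across 12231 genes with at least 100 UMIs in the compared libraries together, 740 (6.05%) were at least 1.5-fold higher in the corrected library and 1275 (10.4%) at least 1.5-fold higher in Rbm20_homo, or 16.5% in either direction. Past 2-fold there were 254 and 461. The median log2 ratio of corrected to Rbm20_homo was -0.05 over these genes and -0.06 over the 13911 genes with at least 50 UMIs, of which 43.3% were higher in the corrected library. These shares are the background for the gene lists below. Intervals are exact 95% intervals that cover counting error only.

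**Figure D1:**
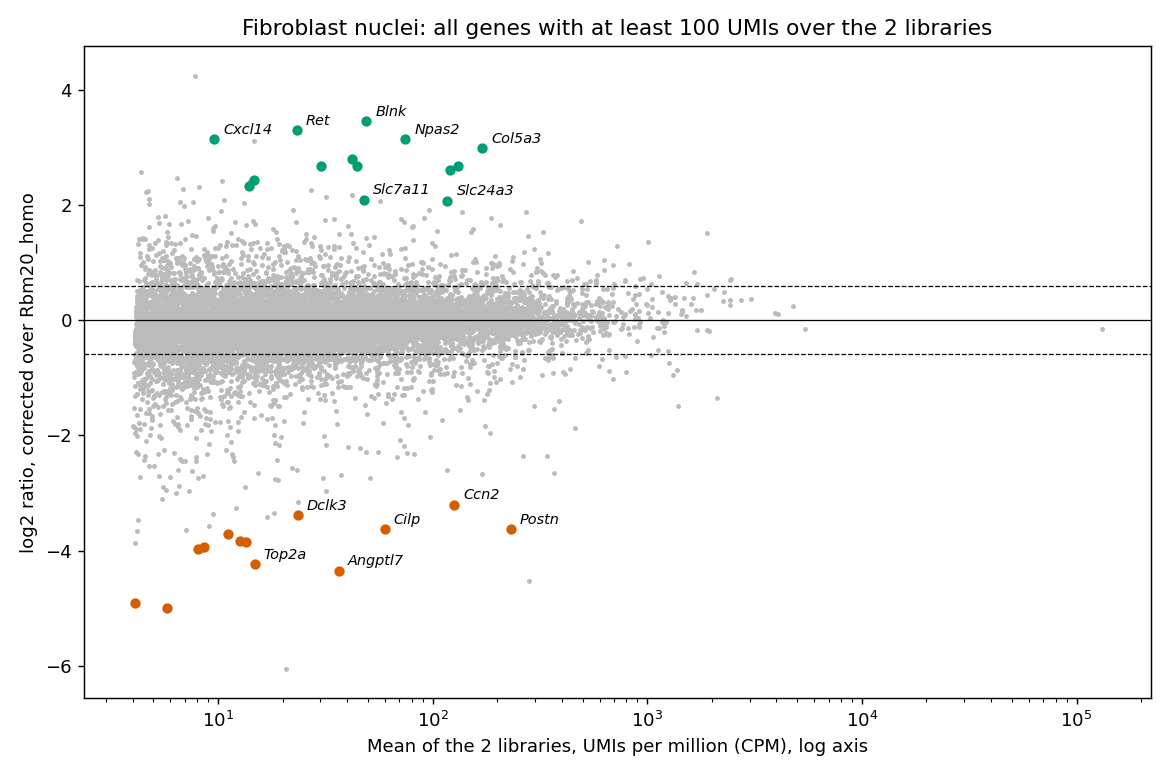
Each point is 1 gene in fibroblast nuclei, placed by its mean CPM in the compared libraries (horizontal, log axis) and its log2 ratio of corrected to Rbm20_homo (vertical), with dashed lines at 1.5-fold. The 13 named genes shown as highest in Rbm20_homo (orange) lie below -3 and the 14 highest in the corrected library (green) above 2; crowded points are not labelled.

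The matricellular genes held several of the widest ratios between the libraries. Postn (periostin, secreted by activated fibroblasts), Cilp, Comp, Thbs4 and Ccn2 were each at least 9.23-fold higher in Rbm20_homo, and in the corrected library each stood near its WT or Rbm20_het level. Of the 34 list members with at least 50 UMIs, 24 were lower and 10 higher in the corrected library, with a median log2 ratio of -0.48. Past 1.5-fold, 13 of 33 (39.4%) were higher in Rbm20_homo against 10.4% of all genes, and 8 of 33 (24.2%) were higher in the corrected library against 6.05%. Other nuclei shared the lower median of this list, at -0.65 in endothelial nuclei (14 of 22 lower), -0.62 in cardiomyocyte nuclei (11 of 17) and -0.10 in immune nuclei (6 of 12).

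Postn (chr3:54361109-54391037, build GRCm38) measured 36.0, 36.6, 429 and 34.6 CPM (order WT, Rbm20_het, Rbm20_homo, corrected), from 231, 330, 5469 and 394 UMIs. Rbm20_homo stood apart from the other libraries, whose values lay close together, and its level was 12.4-fold that of the corrected library (interval 11.2 to 13.8). Endothelial nuclei held 77.5 CPM in Rbm20_homo and 18.0 in the corrected library, and cardiomyocyte nuclei 20.6 and 3.36, so both also held less in the corrected library, at levels far below that of the Rbm20_homo fibroblast nuclei. Cilp (chr9:65265180-65280605), a cartilage intermediate layer protein that binds TGF-beta, measured 3.58, 9.31, 111 and 8.96 CPM in WT, Rbm20_het, Rbm20_homo and corrected, a ratio of 12.4 (10.1 to 15.3). Here the corrected library was level with Rbm20_het and above WT.

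Thbs4 (chr13:92751590-92794818), a thrombospondin of strained muscle and tendon, measured 0.156, 1.33, 25.2 and 1.76 CPM in the same order, from 1, 12, 322 and 20 UMIs. Its ratio of Rbm20_homo to corrected was 14.4 (9.15 to 23.8), a log2 ratio of corrected to Rbm20_homo of -3.84 that became -2.96 when nuclei were thinned to 1000 UMIs each. Comp (chr8:70373558-70382066), the thrombospondin of cartilage matrix, measured 2.18, 2.77, 23.8 and 1.67 CPM, a ratio of 14.2 (8.95 to 23.96). Rbm20_homo was the high library for both, and the others held few UMIs.

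Ccn2 (chr10:24595442-24598683), also called connective tissue growth factor, measured 30.5, 31.9, 228 and 24.7 CPM, a ratio of 9.23 (8.16 to 10.5). Like Postn, it also differed within other nuclei: endothelial nuclei held 91.2 CPM in Rbm20_homo and 5.61 in the corrected library, and cardiomyocyte nuclei 48.3 and 5.37. Mfap4, a microfibril protein, measured 37.4, 25.7, 121 and 26.6 CPM, and Mfap5 223, 208, 564 and 213. Both were highest in Rbm20_homo, with WT and corrected close to each other.

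Other matricellular genes went the opposite way. Eln (tropoelastin, the elastic fibre core) measured 164, 129, 169 and 486 CPM in WT, Rbm20_het, Rbm20_homo and corrected, 2.88-fold higher in the corrected library than in Rbm20_homo (2.74 to 3.03). The corrected library was the outlying one here, since WT and Rbm20_homo were alike. In endothelial nuclei Eln was lower in the corrected library, at 346 CPM against 896 in Rbm20_homo. Fbn1, the fibrillin of microfibrils, measured 416, 323, 451 and 701 CPM, again highest in the corrected library. Tnxb (tenascin X) instead was low in Rbm20_homo, at 1198.5, 931, 474 and 917 CPM. Spon2, the list member furthest toward the corrected library, measured 4.52, 2.77, 2.35 and 11.3 CPM.

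The promoters of the matricellular genes named above are shown because these genes were high together in Rbm20_homo. Of Postn, Cilp, Thbs4, Comp and Ccn2, the first 3 were found in the RefSeq promoter table (GRCm38.p6); the 250 bases before each start are printed 5′ to 3′ on the strand of the gene. Capitals mark matches to 6 motifs searched on both strands. The TEAD motif was searched as GGAATG, the AP-1 motif as TGANTCA and the SMAD motif as CAGACA. The E-box was searched as CACGTG, the TATA box as TATAAA and the glucocorticoid receptor half-site as AGAACA.
Postn, chr3:54360857-54361106, forward strand: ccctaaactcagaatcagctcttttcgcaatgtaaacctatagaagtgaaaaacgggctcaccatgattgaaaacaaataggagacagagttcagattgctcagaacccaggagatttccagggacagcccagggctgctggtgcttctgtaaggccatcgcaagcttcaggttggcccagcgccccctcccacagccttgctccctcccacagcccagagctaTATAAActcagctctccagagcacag
Cilp, chr9:65264930-65265179, forward strand: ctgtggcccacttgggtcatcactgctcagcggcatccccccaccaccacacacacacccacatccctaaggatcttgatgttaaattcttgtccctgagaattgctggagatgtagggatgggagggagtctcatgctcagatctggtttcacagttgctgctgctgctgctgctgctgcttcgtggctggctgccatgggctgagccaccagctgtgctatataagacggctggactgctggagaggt
Thbs4, chr13:92794819-92795068, reverse strand: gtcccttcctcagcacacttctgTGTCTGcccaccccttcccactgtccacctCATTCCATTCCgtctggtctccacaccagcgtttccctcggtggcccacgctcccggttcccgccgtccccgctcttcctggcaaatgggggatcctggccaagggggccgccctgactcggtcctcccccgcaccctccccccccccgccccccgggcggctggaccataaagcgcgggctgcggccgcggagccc
The Postn window held TATAAA 26 bases before the start. The Thbs4 window held the TEAD letters on the opposite strand at positions -197 and -192, which share 1 base, and the SMAD letters on the opposite strand at -227. None of the 6 motifs was found in the Cilp window. No searched motif was found in more than 1 of these windows. Only exact letters were counted, so the tatataag near the end of the Cilp window was not marked as a TATA box. Over 32851 promoter windows of 300 bases, 14.7% held the TEAD letters, 21.0% the SMAD letters and 13.6% TATAAA.

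**Figure D2:**
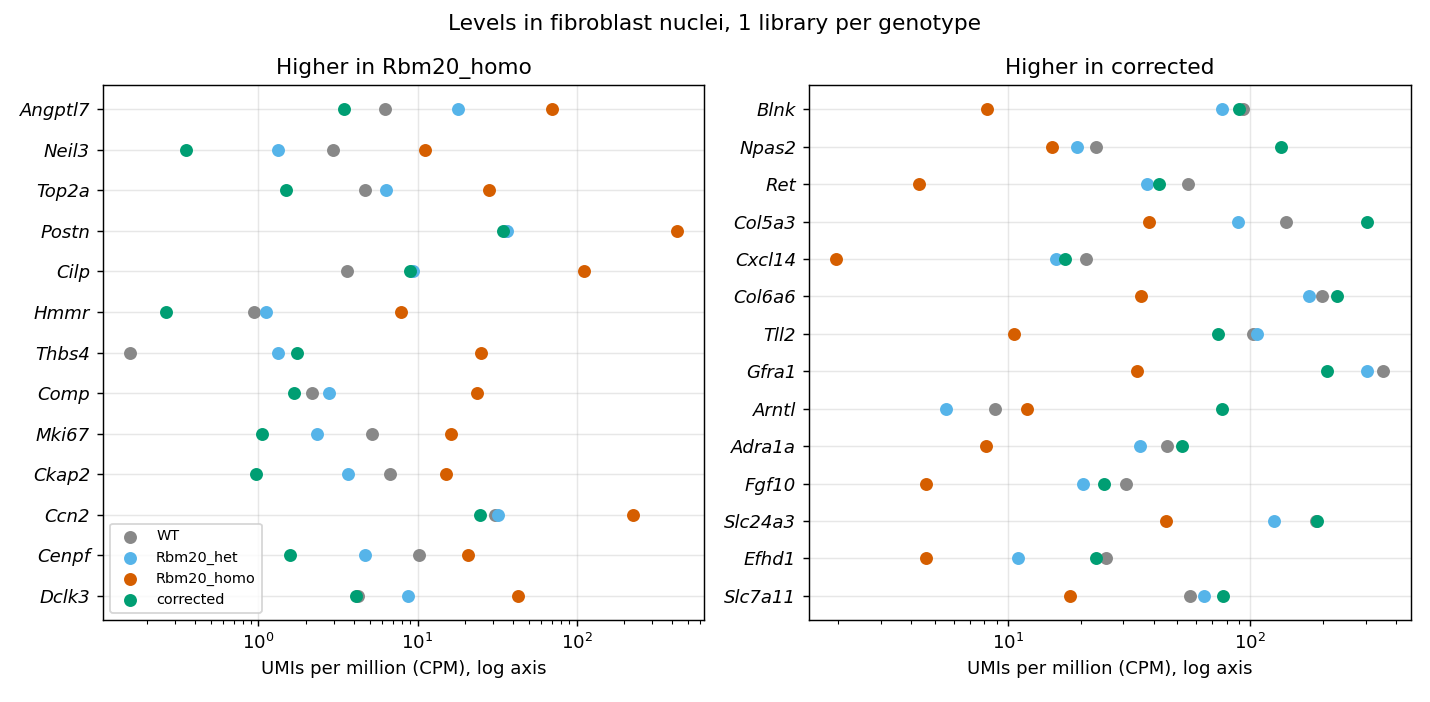
Level of 27 named genes in fibroblast nuclei of the 4 libraries, in CPM on a log axis, 1 point per library. On the left Rbm20_homo (orange) is the highest library for each gene, as Postn at 429 against 34.6 to 36.6 elsewhere; on the right it is the lowest for each gene except Arntl, whose lowest library is Rbm20_het.

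Most fibrillar and fibril-associated collagens outside the rule were higher in Rbm20_homo, with 1 large exception. Of 10 members, 8 were lower and 2 higher in the corrected library, with a median log2 ratio of -0.60, or -0.45 over 12 with Col1a2 and Col3a1 of the rule. Past 1.5-fold, 5 of 10 were higher in Rbm20_homo against 10.4% of all genes, and 1 was higher in the corrected library against 6.05%. The summed level of the 10 was 1294 CPM in Rbm20_homo and 1336 in the corrected library, so as a sum they were nearly equal. With Col1a2 and Col3a1 counted, the list's median was -0.50 in endothelial nuclei (7 of 8 lower), -0.19 in cardiomyocyte nuclei (5 of 8) and -0.41 in immune nuclei (5 of 7). Those nuclei were limited to under 4 UMIs of the rule's fibroblast genes, so these medians rest in part on genes that chose the nuclei. Col1a1, a chain of type I collagen, measured 54.98, 44.5, 164 and 84.3 CPM in WT, Rbm20_het, Rbm20_homo and corrected, 1.95-fold higher in Rbm20_homo (1.81 to 2.11). The corrected library lay between WT and Rbm20_homo. Col12a1, a fibril-associated collagen, measured 4.21, 5.99, 32.1 and 4.74 CPM, a ratio of 6.76 (5.08 to 9.15). Col3a1 and Col1a2, which belong to the rule, measured 485 and 405 CPM, and 479 and 322 CPM, in Rbm20_homo and corrected.

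Col5a3 (chr9:20770050-20815067), a minor chain of type V collagen that helps set fibril width, was the exception. It measured 140.5, 89.6, 38.4 and 303 CPM in WT, Rbm20_het, Rbm20_homo and corrected, 7.89-fold higher in the corrected library than in Rbm20_homo (7.18 to 8.69). The corrected library also stood above WT, so the 4 values do not place it near WT.

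Network and microfibrillar collagens were mixed, with 8 of 14 higher in the corrected library and a median log2 ratio of 0.09. Col8a1, a short-chain collagen of remodelled tissue, measured 907, 1253.5, 3025 and 1182.5 CPM, 2.56-fold higher in Rbm20_homo (2.51 to 2.61). Col6a6 (chr9:105687809-105828160), a beaded-filament collagen chain, measured 197, 176, 35.6 and 228 CPM, 6.40-fold higher in the corrected library (5.79 to 7.09). The values of WT, Rbm20_het and the corrected library lay together, and Rbm20_homo was far below them. Col15a1, which tethers basement membrane to the matrix, measured 285, 198, 214 and 478 CPM, and Col6a3 129, 101, 125 and 251 CPM. For both, the corrected library was above the other 3.

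Proteoglycan and hyaluronan genes outside the rule had a median log2 ratio of -0.15, with 13 of 22 lower in the corrected library. Prg4 (lubricin) measured 6.70, 8.43, 37.9 and 6.41 CPM, and Aspn (asporin) 118, 125, 251 and 96.0 CPM. Has2, the main hyaluronan synthase, went the other way at 23.4, 10.2, 9.56 and 24.2 CPM. Among genes of collagen processing and cross-linking, 15 of 22 were lower in the corrected library, with a median of -0.14. Lox (lysyl oxidase, which cross-links collagen) measured 4.67, 5.77, 12.2 and 3.95 CPM, and Plod2 (a collagen lysyl hydroxylase) 139.6, 132, 253 and 118 CPM. Adamts14, a procollagen peptidase, was highest in the corrected library at 26.3, 26.4, 16.0 and 53.7 CPM.

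Matrix proteases and their inhibitors leaned toward the corrected library: 16 of 28 were higher there, with a median log2 ratio of 0.30. Past 1.5-fold, 11 of 28 (39.3%) were higher in the corrected library against 6.05% of all genes, and 5 (17.9%) were higher in Rbm20_homo against 10.4%. Timp1, an inhibitor of matrix metalloproteinases, lay on the Rbm20_homo side and measured 0.779, 1.44, 7.68 and 2.11 CPM in WT, Rbm20_het, Rbm20_homo and corrected. Several proteases and a protease-like protein lay on the corrected side. Adamtsl3 measured 418, 184, 58.9 and 216 CPM, 3.67-fold higher in the corrected library (3.38 to 3.99). Adam19, a membrane metalloproteinase, measured 212, 186, 99.5 and 313 CPM. Mmp3 (stromelysin) measured 6.39, 4.88, 1.80 and 7.73 CPM. Rbm20_homo was the lowest library for these last 3 genes.

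Genes of TGF-beta and activin signalling, the best known pathway of fibroblast activation, were mostly lower in the corrected library: 21 of 30, with a median log2 ratio of -0.30. Past 1.5-fold, 8 of 30 (26.7%) were higher in Rbm20_homo against 10.4% of all genes, and 3 (10.0%) in the corrected library against 6.05%. Medians in other nuclei were also below 0, at -0.147 in cardiomyocyte, -0.195 in endothelial and -0.096 in immune nuclei. Ltbp2, a latent TGF-beta binding protein of the matrix, measured 2.96, 12.1, 88.5 and 13.3 CPM in WT, Rbm20_het, Rbm20_homo and corrected, 6.67-fold higher in Rbm20_homo (5.62 to 7.96). The corrected library was level with Rbm20_het. Targets and brakes of the pathway showed smaller ratios. Skil measured 59.8, 65.9, 129 and 66.4 CPM, and Smad6 27.7, 35.0, 75.4 and 34.004 CPM. Smad3, which carries the signal to the nucleus, was lowest in Rbm20_homo, at 182, 175, 103 and 205 CPM. The receptors Tgfbr1 and Tgfbr2 measured 264 and 173, and 173 and 138 CPM, in Rbm20_homo and corrected. BMP ligands, receptors and antagonists had a median of -0.25, with 10 of 14 lower in the corrected library.

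Regulators of activation did not lean as a list, with 13 of 29 higher in the corrected library and a median log2 ratio of -0.09, yet a few members differed widely. Ddah1 measured 1.56, 1.77, 33.1 and 3.25 CPM, a ratio of Rbm20_homo to corrected of 10.2 (7.26 to 14.7). Nox4, an oxidase induced by TGF-beta, measured 126, 139, 569 and 111 CPM, a ratio of 5.14 (4.84 to 5.46). Meox1, a homeobox factor of activated fibroblasts, measured 12.9, 9.98, 74.4 and 24.1 CPM, a ratio of 3.09 (2.70 to 3.55). Meox1 was still above WT in the corrected library, whereas Nox4 was not. Contractile genes of myofibroblasts had a median of -0.20, with 15 of 21 lower in the corrected library. Past 1.5-fold, 4 of 21 (19.0%) were higher in Rbm20_homo against 10.4% of all genes, and 1 (4.76%) in the corrected library against 6.05%. This list's median was -0.69 in cardiomyocyte nuclei (15 of 16 lower), -0.022 in endothelial nuclei and 0.078 in immune nuclei. Acta2 (smooth muscle actin, the usual myofibroblast marker) measured 6.07, 8.76, 14.3 and 10.5 CPM, a ratio of 1.35 (1.07 to 1.72).

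Angptl7 (chr4:148495183-148500460), a secreted angiopoietin-like protein, measured 6.23, 18.1, 69.7 and 3.43 CPM in WT, Rbm20_het, Rbm20_homo and corrected, a ratio of Rbm20_homo to corrected of 20.3 (14.8 to 28.8). Dclk3 (chr9:111439081-111489118), a kinase of the doublecortin-like family, measured 4.21, 8.76, 43.1 and 4.13 CPM, a ratio of 10.4 (7.74 to 14.4). For both genes Rbm20_het was above WT and far below Rbm20_homo.

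The cell cycle list had the lowest median of the 26 gene lists. Of 24 measured members, 23 were lower in the corrected library and 1 was higher, with a median log2 ratio of -2.05. Past 1.5-fold, 16 of 22 (72.7%) were higher in Rbm20_homo against 10.4% of all genes, and none was higher in the corrected library. Top2a (chr11:98992943-99024189), the topoisomerase of dividing cells, measured 4.67, 6.32, 28.1 and 1.49 CPM, a ratio of 18.8 (11.6 to 32.7). Mki67 (chr7:135689784-135716361), the proliferation antigen, measured 5.14, 2.33, 16.2 and 1.05 CPM, a ratio of 15.4 (8.62 to 30.3). Cenpf, a kinetochore protein, measured 10.3, 4.66, 20.8 and 1.58 CPM, and Hmmr, Ckap2 and Neil3 had ratios of 30.0, 15.7 and 31.9. In each of these 6 genes the corrected library was the lowest of all 4, below WT, on 3 to 18 UMIs.

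These UMIs came from few nuclei. A UMI of Top2a, Mki67 or Cenpf was found in 180 Rbm20_homo nuclei (4.74%) and in 21 corrected nuclei (0.487%), against 27 in WT (1.18%) and 29 in Rbm20_het (0.998%). Without those nuclei, a choice made after seeing the data that sets these 3 genes to 0, 12 list members still had 50 UMIs and their median was -0.32. Other nuclei differed in direction. The list's median was -0.68 in immune nuclei (11 of 13 lower in the corrected library), 0.035 in endothelial nuclei (5 of 9 higher) and 0.67 in cardiomyocyte nuclei (5 of 5 higher). Top2a measured 51.3 CPM in Rbm20_homo and 18.3 in corrected immune nuclei, and 10.3 and 2.34 CPM in endothelial nuclei. Cenpf went the other way in cardiomyocyte nuclei, at 0.955 and 7.93 CPM, and in endothelial nuclei, at 5.54 and 8.65 CPM.

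In contrast, genes of resting interstitial fibroblasts were mostly higher in the corrected library: 17 of 21, with a median log2 ratio of 0.37. Past 1.5-fold, 8 of 20 were higher in the corrected library against 6.05% of all genes, and 1 of 20 was higher in Rbm20_homo against 10.4%. Other nuclei leaned the same way, with medians of 0.45 in immune nuclei (8 of 10 higher), 0.32 in cardiomyocyte nuclei (11 of 16) and 0.17 in endothelial nuclei (10 of 16). Gfra1 (chr19:58235604-58455909), a co-receptor for glial cell line-derived neurotrophic factor, measured 354, 305, 34.2 and 207 CPM in WT, Rbm20_het, Rbm20_homo and corrected, 6.06-fold higher in the corrected library (5.47 to 6.73). The corrected library was far above Rbm20_homo and below both WT and Rbm20_het. Ret (chr6:118151745-118197718), the receptor kinase that pairs with Gfra1, measured 55.4, 37.5, 4.31 and 42.3 CPM, 9.80-fold higher (7.41 to 13.2). Ret is not a member of this list and counts among the growth factors and receptors below. Cxcl14, a chemokine, measured 21.0, 15.9, 1.96 and 17.3 CPM, 8.83-fold higher (5.81 to 13.98). Scara5, a ferritin receptor, measured 336, 332, 84.8 and 289 CPM, 3.41-fold higher (3.18 to 3.65). In all 4 genes Rbm20_homo was the low library. Endothelial and cardiomyocyte nuclei held at most 12.6 CPM of Gfra1, Cxcl14 or Scara5 in either library. For Ret, endothelial nuclei held 13.3 CPM in Rbm20_homo and 16.1 in the corrected library, above the fibroblast level in Rbm20_homo.

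Growth factors and their receptors outside the rule were divided, with 22 of 42 higher in the corrected library and a median log2 ratio of 0.02. Of 37 members, 13 passed 1.5-fold toward the corrected library and 8 toward Rbm20_homo. With Pdgfra of the rule, these were 34.2% and 21.1% of 38, against 6.05% and 10.4% of all genes. Fgf10 (chr13:118669791-118792115), a growth factor for epithelia and adipose tissue, measured 30.7, 20.5, 4.62 and 24.9 CPM, 5.38-fold higher in the corrected library (4.05 to 7.24). Bdnf, a neurotrophin, went the other way at 3.58, 3.44, 13.5 and 3.87 CPM.

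Adventitial fibroblast genes, which mark cells around vessels, had a median of 0.11 with 13 of 21 higher in the corrected library. Past 1.5-fold, 3 of 21 (14.3%) were higher in Rbm20_homo against 10.4% of all genes, and 1 (4.76%) in the corrected library against 6.05%. Pi16, the best known of them, went against the list's median. It measured 324, 291, 437 and 156 CPM, 2.79-fold higher in Rbm20_homo (2.65 to 2.95), and the corrected library was the lowest. Dpp4, often used with Pi16, measured 72.6, 58.4, 38.9 and 43.8 CPM, and its ratio of corrected to Rbm20_homo was 1.13 with an interval of 0.994 to 1.28 that includes 1. Igfbp6, an insulin-like growth factor binding protein, measured 16.4, 20.4, 44.6 and 18.1 CPM.

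Other genes higher in the corrected library had no list in common. Blnk (chr19:40928927-40994535), an adaptor of B cell receptor signalling, measured 93.3, 76.9, 8.23 and 89.98 CPM in WT, Rbm20_het, Rbm20_homo and corrected, 10.9-fold higher (8.94 to 13.5). Immune nuclei held 195 CPM in Rbm20_homo and 272 in the corrected library, so the ratio of fibroblast nuclei was much wider than theirs. Tll2 (chr19:41082753-41206835), a tolloid-like metalloproteinase, measured 103, 107, 10.7 and 73.8 CPM, 6.92-fold higher (5.77 to 8.36). Slc24a3, a potassium-dependent sodium/calcium exchanger, measured 186, 126, 45.1 and 189 CPM, 4.20-fold higher (3.83 to 4.62). Slc7a11, the cystine transporter, measured 56.5, 64.4, 18.1 and 77.2 CPM, 4.27-fold higher (3.69 to 4.95). Efhd1, a calcium-binding mitochondrial protein, measured 25.5, 11.1, 4.62 and 23.2 CPM. Adra1a (chr14:66635251-66771168), an alpha-1 adrenergic receptor, measured 45.5, 35.0, 8.15 and 52.4 CPM, and cardiomyocyte nuclei held 55.2 CPM in Rbm20_homo and 204 in the corrected library. For each of these genes Rbm20_homo was the lowest library.

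Among clock genes, Arntl and Npas2 set the corrected library apart from the other 3. Of 19 members of the list, 15 were lower and 4 higher in the corrected library than in Rbm20_homo, with a median log2 ratio of -0.92. Past 1.5-fold, 10 of 19 (52.6%) were higher in Rbm20_homo against 10.4% of all genes, and 2 (10.5%) in the corrected library against 6.05%. Arntl (chr7:113207465-113314126) and Npas2 (chr1:39193731-39363236) encode the activating arm of the clock. Arntl measured 8.88, 5.54, 12.0 and 76.6 CPM in WT, Rbm20_het, Rbm20_homo and corrected, 6.39-fold higher in the corrected library than in Rbm20_homo (5.37 to 7.64). Npas2 measured 23.1, 19.4, 15.2 and 134 CPM, 8.81-fold higher (7.58 to 10.3). The first 3 libraries lay between 5.54 and 12.0 CPM for Arntl and between 15.2 and 23.1 CPM for Npas2, and the corrected library stood far above.

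Per2, Ciart and Bhlhe41 of the repressing arm went the other way, and WT, Rbm20_het and Rbm20_homo also differed among themselves. Per2 measured 55.6, 96.2, 127 and 25.7 CPM, 4.95-fold higher in Rbm20_homo (4.37 to 5.63). Ciart, a repressor of the clock, measured 5.30, 15.9, 13.1 and 1.05 CPM, and Bhlhe41 42.7, 47.0, 75.7 and 16.2 CPM. The corrected library was the lowest for each. Other nuclei showed the same direction for Arntl and Per2: cardiomyocyte nuclei held 3.44 CPM of Arntl in Rbm20_homo and 36.3 in the corrected library, and 63.4 and 16.5 CPM of Per2. For Npas2, cardiomyocyte nuclei held 84.0 and 83.8 CPM, a ratio of 0.998 whose interval (0.882 to 1.13) includes 1, while endothelial nuclei held 11.4 and 25.0 CPM. As a list, clock genes had medians of -0.003, -0.003 and 0.23 in cardiomyocyte, endothelial and immune nuclei. The hour at which hearts were taken is not given in the sources used here.

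Genes induced by glucocorticoids were mostly lower in the corrected library: 19 of 24, with a median log2 ratio of -0.67. Past 1.5-fold, 16 of 23 (69.6%) were higher in Rbm20_homo against 10.4% of all genes, and none was higher in the corrected library. Ddit4, a brake on growth signalling, measured 6.39, 13.3, 40.2 and 6.59 CPM, a ratio of 6.102 (4.78 to 7.88). Tsc22d3, the glucocorticoid-induced leucine zipper, measured 67.4, 139, 226 and 96.7 CPM, and Fkbp5, a chaperone of the glucocorticoid receptor, 268, 533, 863 and 470.2 CPM. For these the corrected library lay nearer to WT than Rbm20_homo did. The list was also lower in the corrected library in cardiomyocyte nuclei (median -0.53), endothelial nuclei (-0.98) and immune nuclei (-0.84), so it was not confined to fibroblast nuclei. Immediate early genes had a median of -0.50, with 16 of 18 lower in the corrected library, and -1.045, -0.40 and -0.035 in those other nuclei.

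Complement and cytokine genes held a few wide ratios. C7, a late complement component, measured 139.7, 402, 635 and 100.4 CPM in WT, Rbm20_het, Rbm20_homo and corrected, a ratio of Rbm20_homo to corrected of 6.32 (5.94 to 6.73). Here Rbm20_het stood between WT and Rbm20_homo. Ackr4, a scavenging chemokine receptor, measured 36.1, 43.1, 112 and 34.6 CPM. Complement genes had a median log2 ratio of -0.15 (9 of 15 lower), and chemokines, cytokines and receptors one of 0.22 (14 of 19 higher in the corrected library). Interferon response genes had a median of -0.34 with 19 of 28 lower. Toward Rbm20_homo 6 of 25 passed 1.5-fold, against 10.4% of all genes, and toward the corrected library none did, against 6.05%.

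Of the remaining lists, Wnt genes had a median of -0.12, and their member Dkk3 measured 11.2, 12.4, 49.9 and 12.4 CPM across WT, Rbm20_het, Rbm20_homo and corrected. Semaphorin, plexin, Slit and Robo genes had a median of 0.16. Past 1.5-fold, 11 of 30 (36.7%) were higher in the corrected library against 6.05% of all genes, and 4 (13.3%) in Rbm20_homo against 10.4%. Their median was larger in other nuclei, at 0.49 in cardiomyocyte, 0.35 in endothelial and 0.31 in immune nuclei. Integrins and laminins had a median of 0.08, lipid handling genes 0.19, p53 targets -0.38 and heat shock and unfolded protein response genes -0.36. Itgbl1, an integrin-like secreted protein, measured 574, 1029, 2044.5 and 732 CPM, with Rbm20_het again between WT and Rbm20_homo.

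**Figure D3:**
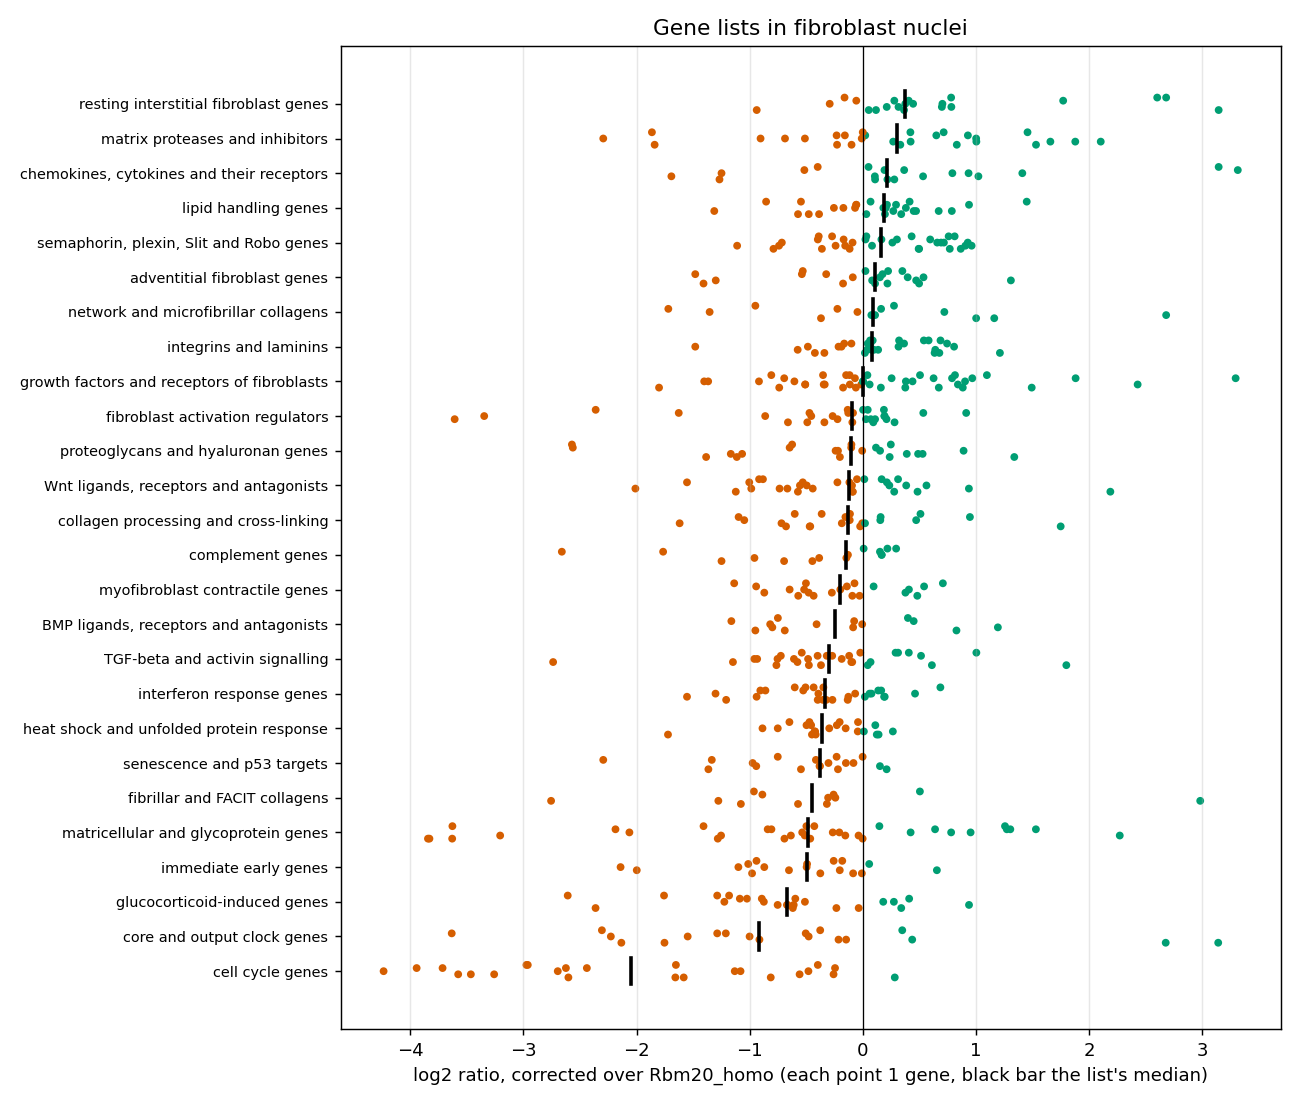
Log2 ratio of corrected to Rbm20_homo for each member with at least 50 UMIs of the 26 gene lists in fibroblast nuclei, 1 point per gene (orange below 0, green above), with a black bar at the median of the list. Medians run from -2.05 for cell cycle genes to 0.37 for genes of resting interstitial fibroblasts, and most lists hold genes on both sides.

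To see whether the sums reflect many nuclei or a few, the share of fibroblast nuclei with a UMI of a gene was taken after thinning each nucleus to 1000 UMIs, which left out 28 Rbm20_homo and 56 corrected nuclei. Intervals are exact Clopper-Pearson intervals. A Postn UMI was found in 21.9% of Rbm20_homo nuclei (20.6 to 23.3) and 2.44% of corrected nuclei (1.9999 to 2.95), against 2.56% in WT and 3.19% in Rbm20_het. Without thinning the shares were 39.1% and 5.82%. In endothelial nuclei thinned the same way, 6.81% in Rbm20_homo and 1.47% in the corrected library held a Postn UMI. The corrected fibroblast share was thus little above the share in endothelial nuclei of that library, and the Rbm20_homo share was far above that of its own.

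Cilp was found in 9.39% and 0.963% of Rbm20_homo and corrected nuclei, Comp in 2.31% and 0.141%, and Meox1 in 6.42% and 2.28%. In endothelial nuclei the same shares were 2.27% and 0.0475% for Cilp, 0.972% and 0.427% for Comp, and 1.22% and 1.19% for Meox1. The corrected share of Comp was no higher than that in endothelial nuclei. Of the resting genes, Gfra1 was found in 2.68% of Rbm20_homo nuclei (2.19 to 3.25) and 15.9% of corrected nuclei (14.9 to 17.1), against 25.7% in WT and 21.9% in Rbm20_het. Col6a6 was found in 3.50% and 19.5%, with 17.0% in WT and 15.6% in Rbm20_het. Unthinned shares were 7.19% and 29.6% for Gfra1 and 8.64% and 35.1% for Col6a6. Endothelial nuclei held Gfra1 in 0.081% and 0.854% and Col6a6 in 0.162% and 1.04%.

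Pi16 was found in 29.6% of Rbm20_homo nuclei (28.1 to 31.1) and 11.1% of corrected nuclei (10.2 to 12.1), with 19.8% in WT and 17.6% in Rbm20_het. The intervals of the 2 compared libraries lie on opposite sides of the WT value. Dpp4 was found in 2.73% and 3.01%, whose intervals overlap.

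**Figure D4:**
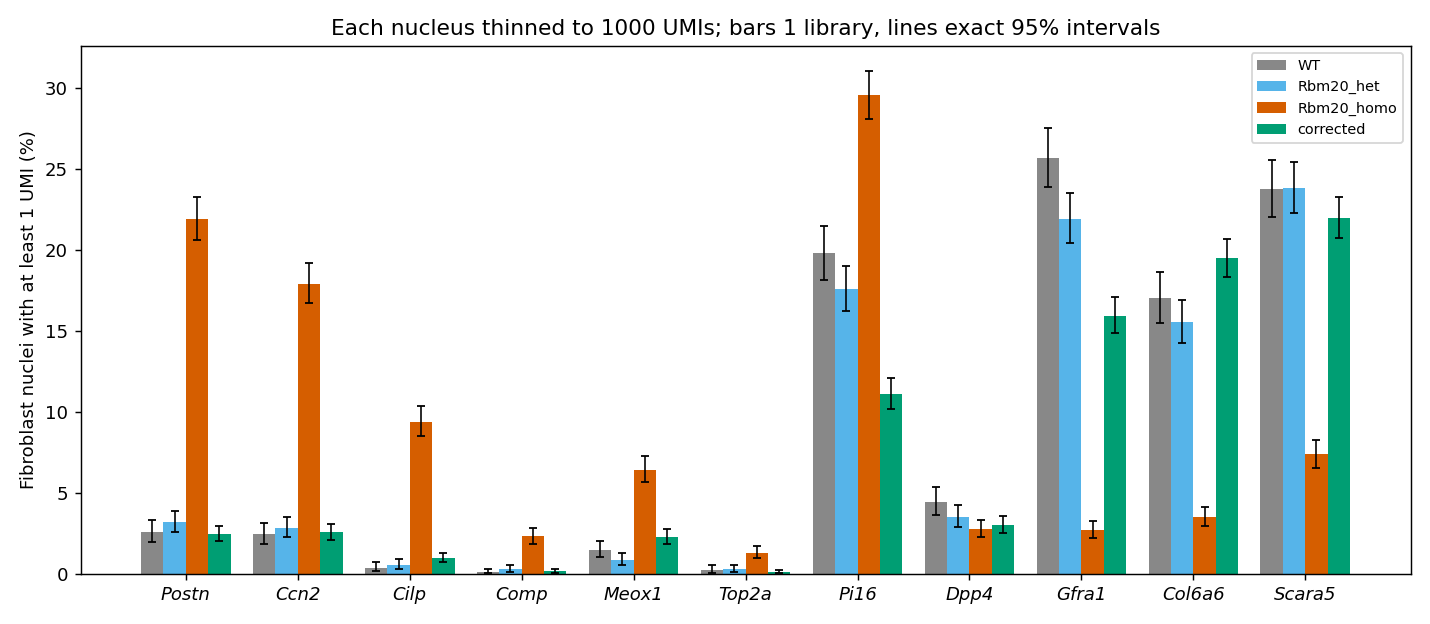
Percent of fibroblast nuclei with at least 1 UMI of a gene after thinning each nucleus to 1000 UMIs, 1 bar per library, with exact 95% intervals for counting error. Rbm20_homo is the tallest bar from Postn to Pi16 and the shortest for Gfra1, Col6a6 and Scara5; for Postn it stands at 21.9% against 2.44% in the corrected library.

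The low level of resting genes in Rbm20_homo was not limited to nuclei with a Postn or Cilp UMI. After thinning, a UMI of Gfra1 or Col6a6 was found in 3.40% of the 1059 Rbm20_homo nuclei with a Postn or Cilp UMI (2.39 to 4.68) and in 7.01% of the 2710 without (6.08 to 8.04). In the corrected library it was found in 10.6% of 141 nuclei with and 31.9% of 4117 without, and in WT in 22.7% of 66 with and 37.0% of 2201 without. The Rbm20_homo nuclei without such a UMI were thus far below the corrected and WT nuclei without one. Nuclei that express a gene can lack a UMI of it at this depth, so the nuclei without are not all unactivated.

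The same was seen over whole sums. Nuclei with no UMI of Postn, Cilp, Comp, Thbs4 or Ccn2 at full depth were 36.3% of the Rbm20_homo nuclei and 88.1% of the corrected nuclei. This choice was made after seeing the data. Among them, 847 of 10649 genes were at least 1.5-fold higher in Rbm20_homo and 589 in the corrected library. Gfra1 measured 52.3 CPM in Rbm20_homo and 219 in the corrected library, Blnk 9.44 and 95.2, and Col5a3 43.6 and 306. Nox4 measured 364 and 101 CPM. The median of the fibrillar collagen list was -0.16 and that of the matricellular list, in which those 5 genes have no UMI by choice, -0.062. The median of the matricellular list, with 28 measured members in place of 34, moved toward 0 in part by the choice itself. Ratios of several single genes also shrank: the log2 ratio of corrected to Rbm20_homo went from -3.35 to -1.73 for Ddah1, from -1.63 to -0.71 for Meox1, from -2.76 to -1.62 for Col12a1 and from -2.74 to -1.93 for Ltbp2. On the other side it went from 3.14 to 2.08 for Cxcl14, from 2.68 to 1.79 for Adra1a and from 2.43 to 1.45 for Fgf10. Some ratios widened instead: Has2 went from 1.34 to 2.75, Ccl2 from 1.408 to 2.775 and Tagln from -0.944 to -2.342. Bmpr1b went from -0.82 to -1.747 and Rspo1 from -1.555 to -2.356.

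**Figure D5:**
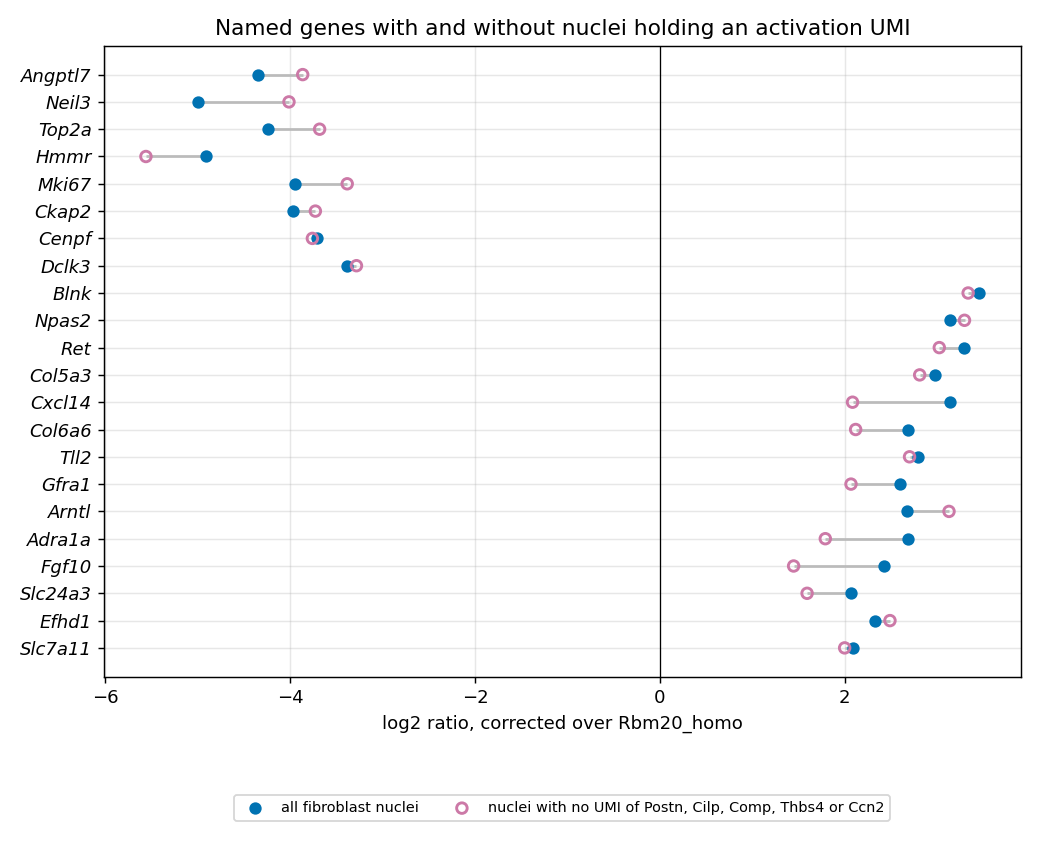
Log2 ratio of corrected to Rbm20_homo for 22 named genes in all fibroblast nuclei (filled) and in those with no UMI of Postn, Cilp, Comp, Thbs4 or Ccn2 (open). Each gene keeps its side of 0; Fgf10 moves from 2.43 to 1.45, and Blnk hardly moves.

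Among 4871 genes with at least 500 UMIs in the Rbm20_homo fibroblast nuclei, the 8 whose level varied most like Postn from nucleus to nucleus were Col8a1, Ccn2, Prkca, Ltbp2, Mical2, Mfap5, Cilp and Fbn1. Pearson's r of log values was 0.30 for Col8a1 and 0.24 for Fbn1 over 3797 nuclei that share a library. Such values are weak and are given as a description. Of the 8, Fbn1 was higher in the corrected library (701 against 451 CPM) and the other 7 were higher in Rbm20_homo.

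Rbm20 itself measured 231, 330, 320 and 343 CPM in fibroblast nuclei of WT, Rbm20_het, Rbm20_homo and corrected, against 4720 and 5287 CPM in the cardiomyocyte nuclei of the latter pair. It belongs to the rule and its level does not show the mutation or its repair. The matrices hold 2 added features, ABE_C and ABE_N. Neither the labels nor the files say what sequence these stand for. Both had 0 UMIs in the fibroblast nuclei of WT, Rbm20_het and Rbm20_homo. In the corrected library they had 91 and 102 UMIs, or 7.996 and 8.96 CPM, in 1.58% and 1.78% of fibroblast nuclei. Cardiomyocyte nuclei of that library held 206 and 299.5 CPM, and endothelial nuclei 8.18 and 14.3. The fibroblast level was thus close to the endothelial level for ABE_C and below it for ABE_N. For both it was far below that of cardiomyocyte nuclei and above that of immune nuclei (4.58 and 4.01 CPM).

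The share of nuclei that met the fibroblast rule was 33.0% for Rbm20_homo (32.1 to 33.9) and 28.8% for corrected (28.1 to 29.6), with 24.4% in WT and 30.2% in Rbm20_het. This share uses the genes of the rule and moves with depth, and with 1 library each it says nothing of the spread between hearts.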

How the data were processed

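The data are 4 single-nucleus libraries (10x 3′ v3). What the authors deposited for each is a matrix of whole-number UMI counts, not normalized. Cell Ranger 6.1.1 and Seurat 4 on build mm10 (GRCm38) were used per the submitters' processing notes, and Cell Ranger 4.0.0 per the file headers. Barcode filtering and the use of introns or strand are not given in the sources used here. Of 32287 features, 32158 were placed with GENCODE vM21.

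UMIs were summed per library over the nuclei chosen by the rule and scaled to CPM over non-mitochondrial UMIs. Ratios have exact conditional binomial intervals and shares Clopper-Pearson intervals, at 95%, for counting error only. No test between libraries was run. The ratio script was tested on simulated data. Comparison nuclei held under 4 fibroblast UMIs and were picked by at least 5% of UMIs from the cardiomyocyte genes (845 in Rbm20_homo, 1476 corrected), at least 4 endothelial UMIs (1298, 2259) or at least 3 immune UMIs (415, 816), with the rule's limits on other types.

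Genes with at least 100 UMIs in their higher library were ranked by whichever interval bound lay closer to 1, and the leading 14 per direction were named. Mitochondrial, haemoglobin, ribosomal protein, X-inactivation and Y-linked genes, added and unnamed features, cardiomyocyte markers and rule genes were left out. So were genes whose higher fibroblast level was under 0.2 of that in other nuclei of the same library. Up to 4 members per list by size of ratio (at least 100 UMIs), 8 state genes, the markers and the 8 genes most like Postn were added; other list members were chosen after their values were seen. The members and lists were chosen with earlier results of these data known. Doublets were not removed in the main sums; removing the highest Scrublet scores (scanpy 1.11.5), 0.8% per 1000 barcodes, is an alternative, as are TMM factors (edgeR 4.0.16), size factors, thinning, filters and stricter rules. Computation used Python 3.11.15, numpy 2.4.6, scipy 1.17.1 and R 4.3.3. Results for a few listed genes are not reported here, though they count in the totals of their lists.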

Additional observations from a re-analysis of the deposited data

Results flagged for a closer look

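The added features ABE_C and ABE_N, which no comparison uses, had 91 and 102 UMIs in the fibroblast nuclei of the corrected library and 0 in those of the other 3 libraries.

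Some genes went opposite ways in fibroblast nuclei and in other nuclei of the same libraries; with 1 library per genotype these differences were not tested. Bmper, a BMP-binding protein, had a log2 ratio of corrected to Rbm20_homo of -1.44 in cardiomyocyte nuclei (151 to 55.7 CPM) and 0.83 in fibroblast nuclei (237 to 419.8 CPM), which was 0.40 in fibroblast nuclei with no UMI of Postn, Cilp, Comp, Thbs4 or Ccn2. Lpl, lipoprotein lipase, had -0.78 in endothelial nuclei (479 to 278 CPM) and 0.78 in fibroblast nuclei (100.4 to 173 CPM).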

How the results depend on the processing

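Of 12231 genes, 740 were past 1.5-fold toward the corrected library and 1275 toward Rbm20_homo. Toward the corrected library the count was 1276 with at least 20 UMIs, 364 with at least 500, 2333 with no minimum and 254 past 2-fold. Toward Rbm20_homo it was 2498, 458, 4020 and 461 under the same settings, 787 in thinned nuclei and 847 in nuclei with no UMI of the 5 matricellular genes (chosen after seeing the data). TMM factors gave 864 and 1106, size factors 838 and 1129, CPM without Malat1 694 and 1348, and Scrublet filtering 755 and 1265. The median of all genes moved between -0.071 and 0.007 with the scaling.

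Without nuclei holding a UMI of those 5 genes, list medians were -0.16 for fibrillar collagens, -0.062 for matricellular genes, -0.40 for complement and -1.44 for cell cycle genes. With at least 500 UMIs, clock genes stood at -0.49, semaphorin genes at 0.46 and cell cycle genes at -0.56. The cell cycle median was -0.94 thinned, -1.78 as a mean of per-nucleus shares and -0.32 without nuclei holding a cell cycle UMI. The other 328 list medians moved by less than 0.25, and no ratio of a named or listed gene changed direction. Of the gene ratios past 1.5-fold, 20 of 108 moved by over 1.5 times and 7 no longer passed 1.5-fold without nuclei holding a UMI of the 5 matricellular genes. Thinning moved 9 of 113, and 1 no longer passed; stricter limits moved 5 of 112, among them Mki67 from -3.94 to -5.51 and Cenpf from -3.71 to -4.92.

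The share of nuclei meeting the rule in Rbm20_homo was 27.7% with at least 8 UMIs, 21.5% with stricter limits, 30.9% with Pdgfra and Abca8a alone and 31.3% after Scrublet. In the corrected library it was 22.8%, 18.1% and, after Scrublet, 27.0%. The Postn share in Rbm20_homo was 39.1% unthinned and 33.4% thinned to 2000 UMIs. In the corrected library it was 5.82%, 5.05% and, with at least 8 rule UMIs, 1.59%. The Gfra1 share in Rbm20_homo was 7.19%, 4.89%, 3.39% and, with Pdgfra and Abca8a alone, 3.45%, and in the corrected library 29.6% unthinned and 25.5% at 2000 UMIs. Except where an alternative counts fewer genes or nuclei, the cause was not tested.

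No paired analysis was possible because each genotype had 1 library, and leaving out a replicate does not apply.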

Other observations

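Some named genes lie near each other in the genome. Blnk (chr19:40928927-40994535) and Tll2 (chr19:41082753-41206835), both higher in the corrected library, both lie on chromosome 19.

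Mesothelial markers, from cells that cover the heart, were lower in the corrected library in 8 of 8 measured members, with a median log2 ratio of -1.07. Msln, their best known member, measured 5.45, 2.77, 10.5 and 2.81 CPM in WT, Rbm20_het, Rbm20_homo and corrected. Pericyte and smooth muscle markers were higher in the corrected library in 12 of 15, with a median of 0.49. Among them Abcc9 measured 425, 560.4, 206 and 428 CPM, so Rbm20_homo was the low library. Tek, listed as an endothelial marker, measured 386, 268, 151 and 325 CPM in fibroblast nuclei.

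Myh7b, which cardiomyocyte nuclei held at 0.573 CPM in Rbm20_homo and 204 in the corrected library, measured 29.3, 1.11, 0.784 and 14.8 CPM in fibroblast nuclei of WT, Rbm20_het, Rbm20_homo and corrected. It was left out of the named genes for its level in cardiomyocyte nuclei.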
